A study of Mus musculus with 4 samples.

Results

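Pax7 bound near 298 of the 443 genes that the study calls Active III, with 469 of the 20579 Pax7 peaks in the deposited list. Active III is one of the groups into which the study sorted genes that contact Pax7-bound enhancers, according to their RNA levels on the way from embryonic stem cells (ESCs) to differentiated muscle cells. A peak was counted here when its summit, the base with the most ChIP signal, lay within 25 kb of the transcription start site (TSS) of such a gene. The genes were thus chosen through measured Pax7 binding, so the binding values that follow are a description and no test was made on them.

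The cells were iPax7 muscle progenitors, derived from mouse ESCs that carry a doxycycline (Dox)-inducible Pax7 transgene. They were grown as embryoid bodies, given Dox at 1 µg/ml from day 3, sorted on day 5 as PDGFRα+FLK1- cells and harvested on day 9, after 6 days of Dox. There were 2 Pax7 ChIP and 2 input libraries, all from cells with this one treatment, and the authors merged both pairs before they called peaks. The values therefore hold no spread between replicates, no untreated cells were compared, and binding driven by a transgene may differ from that of the endogenous factor. Peaks carry no measure of cell identity, so the progenitor label was not checked against marker genes.

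Pax7 is a paired and homeodomain transcription factor that marks the progenitor and satellite cells of skeletal muscle. Its paired domain recognises a GC-containing core, and its homeodomain recognises AT-rich half-sites, alone, beside a paired site or as a facing pair. Enhancers with such sites can lie at a promoter, in an intron or between genes, and the gene they serve need not be the closest one.

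The sequences under the strongest peaks show these elements. Each line is a window of 101 bases centred on the summit, on mm9 (NCBIM37), written 5′ to 3′ on the strand given. Capitals mark the paired core GTCACG, found on either strand. These 6 are the peaks with the highest fold enrichment over input among those that hold the core.

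Hdac5 (chr11:102091554-102091654, minus strand): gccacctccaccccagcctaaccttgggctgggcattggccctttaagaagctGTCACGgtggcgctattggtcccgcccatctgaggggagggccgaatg
Fgf8 (chr19:45812229-45812329, minus strand): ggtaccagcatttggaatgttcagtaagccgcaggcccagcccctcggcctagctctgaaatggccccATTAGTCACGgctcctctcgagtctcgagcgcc
Csrp1 (chr1:137595601-137595701, plus strand): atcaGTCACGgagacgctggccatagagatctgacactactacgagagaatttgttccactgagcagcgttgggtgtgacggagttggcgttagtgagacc
Senp3 (chr11:69475855-69475955, plus strand): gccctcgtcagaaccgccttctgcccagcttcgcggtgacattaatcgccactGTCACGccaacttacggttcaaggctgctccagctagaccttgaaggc
Mthfd1l (chr10:6370939-6371039, minus strand): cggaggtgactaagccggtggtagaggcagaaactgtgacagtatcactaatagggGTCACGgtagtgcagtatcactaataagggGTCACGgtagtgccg
E2f7 (chr10:110200614-110200714, minus strand): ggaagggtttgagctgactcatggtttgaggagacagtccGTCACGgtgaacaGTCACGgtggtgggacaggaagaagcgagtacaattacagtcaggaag

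The centre of the core lay 5.5 bp from the summit at Hdac5, Senp3 and E2f7, and 43.5 bp from it at the Csrp1 peak. The windows at Mthfd1l and E2f7 each held 2 copies of the core. In the Fgf8 window the core was joined to a homeodomain half-site, so that its capitals cover a longer run. A joined site of this kind (ATTAGTCAC or ATTAGTCAT) was also seen without the full paired core in an intron of Tmpo, which encodes a protein of the nuclear envelope. Another lay 6.51 kb upstream of Pou2f1, which encodes the POU-domain factor Oct-1, in an intron of the annotated gene Gm17444. Facing TAAT half-sites were found at Mxra7, with 2 bases between them, and Efna5, with 3. The next 4 windows show these forms in capitals.

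Tmpo (chr10:90621255-90621355, minus strand): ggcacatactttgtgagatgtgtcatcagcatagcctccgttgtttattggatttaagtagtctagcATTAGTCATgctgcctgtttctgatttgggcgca
Pou2f1 (chr1:167939267-167939367, plus strand): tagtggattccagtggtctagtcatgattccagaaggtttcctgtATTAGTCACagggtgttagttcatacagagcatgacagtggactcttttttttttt
Mxra7 (chr11:116675912-116676012, plus strand): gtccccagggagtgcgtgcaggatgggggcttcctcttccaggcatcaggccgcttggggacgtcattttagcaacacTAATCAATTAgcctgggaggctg
Efna5 (chr17:63232561-63232661, plus strand): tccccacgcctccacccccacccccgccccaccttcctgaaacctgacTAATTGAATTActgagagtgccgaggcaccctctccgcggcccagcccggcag

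The highest fold enrichment near an Active III gene, and in the whole list, was at Hdac5. This gene encodes a class IIa histone deacetylase, a known repressor partner of MEF2 factors. Its peak (chr11:102091416-102091781) reached 27.97-fold over input with a −log10 q of 177, and its summit lay 0.124 kb upstream of the TSS. Another 2 peaks lay in the downstream direction of Hdac5, at 15.2 kb with 8.39-fold and at 22.2 kb with 3.95-fold. Near Serbp1, which encodes an mRNA-binding protein, the second strongest peak (16.6-fold) lay 0.594 kb upstream of the TSS, and a peak of 4.94-fold lay 0.084 kb upstream. No paired core was within 50 bp of the summit of the stronger one.

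The peaks that followed in strength lay away from the TSS of the Active III gene. At Dock5, which encodes an activator of Rac, a 14.8-fold peak (chr14:68535472-68536191) was in an intron, 16.0 kb downstream of the TSS. At Sipa1l3, a relative of the Rap GTPase-activating proteins, a 14.7-fold peak was in an intron at 21.0 kb. At Nup160, a component of the nuclear pore, a peak of the same height (14.7-fold) lay between genes, 16.1 kb upstream. None of these 3 windows held a Pax motif, so high enrichment and a recognised motif did not always go together.

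Transcription factor genes also stood among the 15 strongest peaks. Arid3a, an AT-rich DNA-binding factor, had an intronic peak of 13.7-fold at 19.0 kb, also within 1 kb of an annotated transcript start, and a second peak of 8.69-fold at 15.5 kb. Nfatc2, a calcineurin-regulated factor, had a 12.7-fold peak 16.6 kb upstream, between genes. E2f7, an atypical E2F repressor, had a 12.1-fold peak in its own intron at 18.2 kb, likewise within 1 kb of an annotated transcript start.

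The rest of the 15 strongest peaks lay near genes of varied function. Fgf8, a secreted ligand of FGF receptors, held a 13.2-fold peak (chr19:45812074-45812474) in an intron by the annotation, 5.13 kb downstream of its TSS. The same peak was 11.8 kb from Npm3, also an Active III gene and a member of the nucleoplasmin family. Sh3bp4, which acts in endocytosis, had an intronic peak of the same height (13.2-fold) at 16.3 kb. Ipmk, an inositol polyphosphate kinase, reached 12.9-fold at 13.5 kb, and Mthfd1l, a mitochondrial folate enzyme, 12.3-fold at 2.43 kb. A 12.7-fold peak lay 21.0 kb upstream of Csrp1, which encodes a LIM-domain protein, and 11.0 kb from Nav1, a microtubule-associated protein. The 12.6-fold peak near Senp3, a SUMO protease, was 19.7 kb from that gene but 0.239 kb from the TSS of Mpdu1. Mxra7 closed the 15 with 12.1-fold at 13.4 kb.

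**Figure D1:**
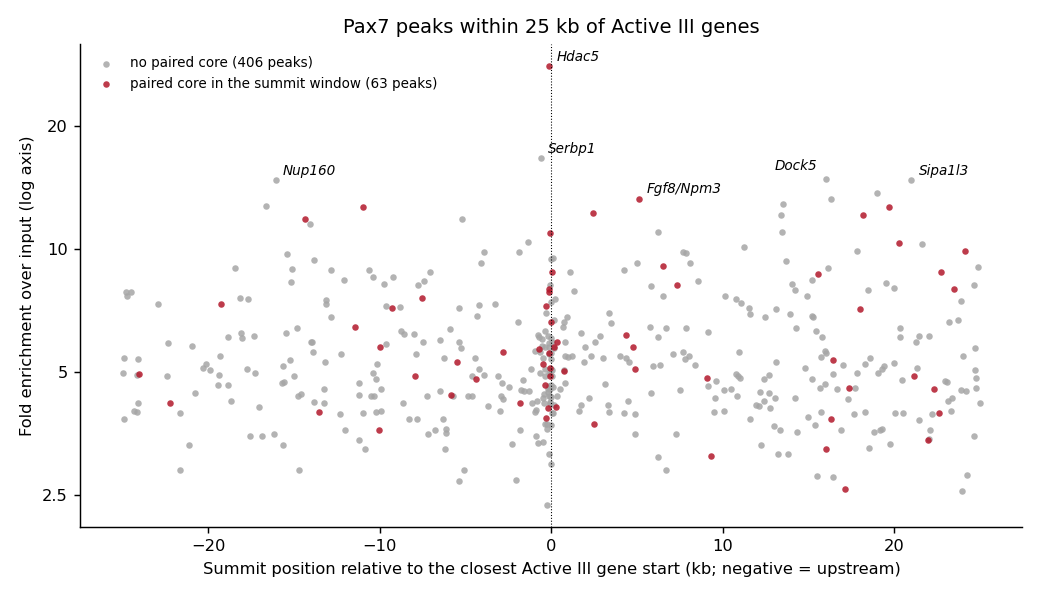
Each point is 1 of the 469 Pax7 peaks near Active III genes, placed by its summit relative to the closest Active III gene start (x axis, kb, negative is upstream) and its fold enrichment over input (y axis, log axis). Red points hold the paired core in the summit window (63 peaks) and grey points do not (406 peaks); Hdac5 stands alone at the top, close to position 0.

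At the other end, the 3 lowest peaks were at Rad54b (2.37-fold, 0.227 kb upstream), Kirrel (2.56-fold, 23.9 kb downstream) and Tmem183a (2.59-fold, 17.1 kb downstream). Rad54b, a DNA repair helicase, also had a peak of 6.10-fold 0.186 kb upstream of a start annotated for it. Since the list was limited at a q-value of 0.01, weaker binding could not be seen.

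Across all 469 peaks the median fold enrichment was 5.08 (quartiles 4.21 and 6.62). The 7707 peaks within 25 kb of other protein-coding genes had a median of 5.07 (quartiles 4.20 and 6.58), and the whole list one of 5.22. Fold enrichment reached 10 in 25 peaks near Active III genes (5.33%) and in 6.51% of the other gene-proximal peaks. Of the 1000 strongest peaks of the list 20 lay near Active III genes, and of the 100 strongest 1 did, the Hdac5 peak. The middle of the distribution was thus nearly the same in each gene group, with medians of 5.13 for peaks near Active I genes, 4.92 for Active II and 5.11 for Primed genes. The Primed genes are those that the study describes as not highly expressed in the progenitors, relative to the other cell populations. These groups share peaks: 34 of the 469 were also near an Active I gene, 30 near an Active II gene and 17 near a Primed gene.

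**Figure D2:**
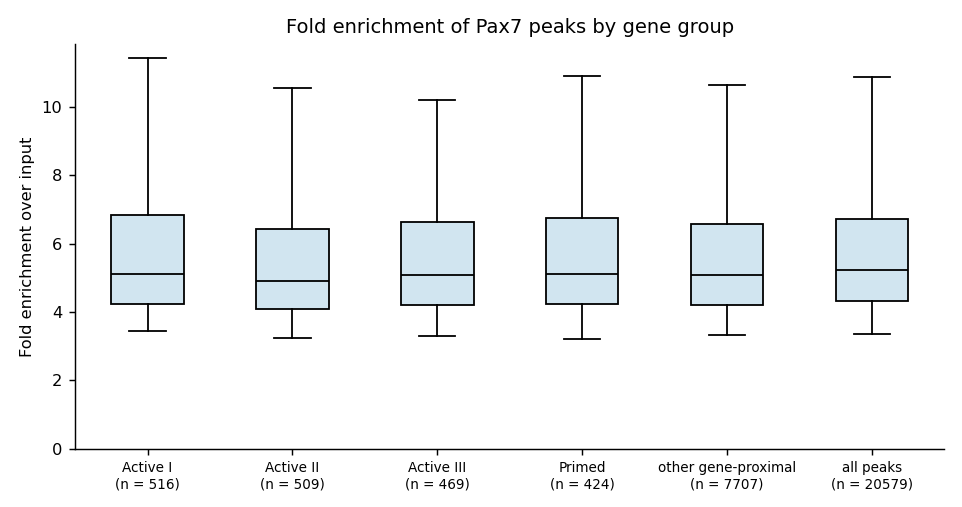
Box plots of fold enrichment over input (y axis) for Pax7 peaks within 25 kb of each gene group, for the 7707 other gene-proximal peaks and for all 20579 peaks. Boxes span the quartiles, the line is the median and whiskers reach the 5th and 95th percentiles; the boxes overlap almost entirely, with medians from 4.92 (Active II) to 5.22 (all peaks), and 5.08 for Active III.

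By gene, 67.3% of the Active III genes (95% Wilson interval 62.8 to 71.5, counting error only) had a peak within 25 kb. Of all 22380 protein-coding genes 38.7% did, and since the study selected its genes by contact with Pax7-bound enhancers, nothing is read from that gap. The shares in the sister groups were 68.8% for Active I, 62.2% for Active II and 65.8% for Primed genes. Among Active III genes 145 had no peak in reach, 166 had 1, 83 had 2, 35 had 3 and 14 had more. Most peaks (446) lay near a single Active III gene, while 23 lay near more than 1.

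Several genes held groups of peaks rather than 1 strong site. Traf3ip2, an adaptor of interleukin-17 receptor signalling, had 6 peaks of 3.60 to 7.18-fold. They lay on both sides of its TSS, 1 upstream at 15.6 kb and the others downstream from 11.5 to 20.5 kb. Cyfip2, a subunit of the WAVE complex that regulates actin, had 5 peaks packed between 21.3 and 24.6 kb downstream of its TSS, at 5.46 to 8.77-fold. The 5 peaks of Setd1b, a histone H3 lysine methyltransferase, all lay upstream, from 1.14 to 8.57 kb, at 4.19 to 6.18-fold. Some of these were closer to Rhof than to Setd1b. At Ipmk the 12.9-fold peak stood above 4 others of 3.57 to 5.45-fold. In all, 194 of the 469 peaks had another summit near an Active III gene within 10 kb of them. A like count was not made for other peaks, so nothing particular to Active III genes is read from it.

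The histone genes on chromosome 13 shared many of their peaks, since most of them stand close together. Hist1h1d, Hist1h3d, Hist1h3e and Hist1h4f, which encode core and linker histones made during S phase, each had 6 peaks within reach. The 7 listed histone genes drew on 11 peaks of 3.34 to 6.45-fold (median 4.36), and 9 of these lay within 1 kb of a TSS. Of the 11, 8 counted for 2 to 6 histone genes each, and the 3 near Hist1h2ai counted for that gene alone. Hist1h4f had a summit 0.025 kb from its start, Hist1h3g one at 0.118 kb and Hist1h3e one at 0.148 kb. Histone genes are near-identical copies, and only uniquely mapped reads were kept, so values there are uncertain.

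Peaks near Active III genes were spread over the whole 25 kb, with a crowd at the start site. The median distance from summit to the closest Active III TSS was 10.0 kb (quartiles 2.43 and 16.4). Within the first 1 kb there were 94 summits, 66 of them upstream and 28 downstream. From 1 to 5 kb there were 65, and from 20 to 25 kb 67, of which 44 were downstream. Median fold enrichment moved little over these distances, from 5.07 within 1 kb to 5.55 at 5 to 10 kb and 4.88 at 20 to 25 kb. Measured to the closest protein-coding gene of any kind, 136 of the peaks lay within 1 kb, and 69.1% of those were upstream, against 62.6% of 2331 other gene-proximal peaks. The side of the TSS was not tested.

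Just inside the distance limit were peaks at 24.960 kb from Susd4 (4.96-fold) and at 24.969 kb from Ipmk (4.19-fold). Just outside it were peaks at 25.051 kb from Kctd15 (6.10-fold) and at 25.152 kb from Sec24b (12.7-fold). The limit therefore left out a peak as strong as those among the 15 highest.

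A summit within 1 kb of a TSS of any annotated transcript was put in that class, even inside an intron or exon. This class held 163 peaks (34.8%, Wilson interval 30.6 to 39.2). Intronic peaks farther from every TSS were the largest class, with 174 peaks (37.1%, 32.8 to 41.6). Beyond 1 kb there were also 109 (23.2%, 19.6 to 27.3) between genes and 23 (4.90%, 3.29 to 7.25) in exons. The other gene-proximal peaks had 33.0% in introns, 36.7% near a TSS, 27.1% between genes and 3.24% in exons. Inside the body of an Active III gene within reach lay 194 summits (41.4%). For 346 peaks (73.8%) the closest protein-coding TSS was that of an Active III gene. For the others a gene outside the group was closer, as at Senp3.

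The Active III genes were also described by functional lists. The lists were drawn up with earlier results of these data known, and each has few genes. Every list but the histones had genes with and without a peak. The share with a peak was between 50.0% and 83.3% in these other lists, beside 67.3% of all Active III genes, so nothing particular to a list is read from its count.

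Of 6 Notch genes 4 had a peak (66.7%), and the receptor gene Notch1 had 3, with 9.70-fold at 15.4 kb and 8.54-fold at 9.24 kb upstream and 5.55-fold at 16.0 kb downstream. Lfng, which modifies Notch with sugars, had an 8.16-fold peak 0.068 kb upstream. Hes1, a Notch target and repressor, had one peak of 5.48-fold at 4.02 kb, and Dtx2, a Deltex ubiquitin ligase, reached 5.76-fold at a summit inside Zp3. The ligand gene Jag2 and the coactivator gene Maml1 had none within 25 kb.

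Of 11 Wnt pathway genes 7 had a peak (63.6%). Jup (plakoglobin) reached 10.3-fold at 21.6 kb, Bcl9, a β-catenin coactivator, 9.75-fold at 7.85 kb, and Daam1, a formin of the planar polarity branch, 7.89-fold at 1.32 kb. Ctnnb1, which encodes β-catenin, had only weaker peaks of 4.54 and 3.98-fold. Wnt3, Wnt6, Dact2 and Tcf7l1 had none in reach. In the Hedgehog pathway the transcription factor genes Gli3 (6.09-fold at 18.9 kb) and Gli1 (4.05-fold at 0.897 kb) had a peak each and Rab23 had none.

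Of 10 FGF and MAP kinase genes 6 had a peak. Beside its 13.2-fold intronic peak, Fgf8 had one of 6.40-fold at 20.3 kb. Frs2, the adaptor of FGF receptors, had 3 peaks of 4.36 to 6.08-fold within 6.22 kb. The MAP kinase phosphatase genes Dusp4 and Dusp5 had peaks of 5.58 and 5.62-fold, and Dusp7 had none, as had Frs3, Map4k4 and Tgfa. Of 7 TGF-β and BMP genes 4 had a peak (57.1%), led by Zfyve9 (SARA, a Smad anchor) with 7.24-fold at 0.316 kb. Twsg1, a BMP-binding protein, reached 5.40-fold, the corepressor gene Ski 5.10-fold and the inhibitory Smad6 4.92-fold. Crim1, Eng and Pmepa1 had none. In insulin signalling Foxo1 (6.24-fold at 1.73 kb), Irs2 (5.21-fold) and Txnip (4.61-fold) had peaks and Mapkap1 had none.

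Of 25 sequence-specific transcription factor genes 16 had a peak (64.0%), 21 peaks in all, with a median of 6.09-fold. After Arid3a, Nfatc2 and E2f7 came Klf7 with 7.52-fold at 10.8 kb. Mycn, Sall1 and Klf4, picked from this list after their values were seen, had moderate peaks. These reached 6.57 and 4.71-fold at Mycn, 6.40 and 5.28-fold at Sall1 and 4.32-fold at Klf4. Foxp4, Gbx2, Nfat5, Nfkb2, Nr2c2, Rfx5, Tbx20, Tcf7l1 and Zic2 of the same list had no peak within 25 kb. Nothing is therefore read from Mycn, Sall1 and Klf4 as a set. Of 16 chromatin regulators 10 had a peak (62.5%). Behind Hdac5 stood Ctcf, the insulator protein, with 11.5-fold at 14.1 kb upstream, the coactivator gene Ncoa3 with 9.87-fold at 17.8 kb and Mll5 with 8.92-fold at 15.1 kb.

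Of 14 mitosis and cell cycle genes 9 had a peak (64.3%). Cenpj, a centriole protein, had a 9.41-fold peak at 3.75 kb, which was 0.023 kb from the TSS of Parp4, also an Active III gene. Others were near Dtl, a ubiquitin ligase subunit, with 8.99-fold at 16.2 kb, Tube1, encoding ε-tubulin, with 8.01-fold at 20.0 kb and closer to Wisp3, and the spindle motor gene Kif11 with 7.96-fold at 0.134 kb. Bub1, Bub1b, Numa1, Smc4 and Spice1 had none. Of 14 genes for DNA replication and repair 8 had a peak (57.1%), with Rad54b, which stands under 2 identifiers, counted once. Fancf, of the Fanconi anaemia core complex, led with 10.1-fold, and Atad5, which unloads PCNA, followed with 8.16-fold, at a summit 0.643 kb from the TSS of Crlf3.

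Of 16 RNA-binding protein genes 9 had a peak (56.2%), with 18 peaks, 9 of them within 1 kb of a TSS. Cnot3, a subunit of the deadenylase complex, had a 10.4-fold peak at 20.3 kb, which was closer to Leng1. Ythdc1, a reader of methylated adenosine, had 7.85-fold at 0.119 kb, and Fxr2 6.97-fold at 0.289 kb. Of 6 nuclear pore and transport genes 5 had a peak (83.3%), none of the 7 peaks within 1 kb of a TSS. After Nup160 came Nup50 with 7.32-fold at 19.2 kb, Nup188 with 5.39-fold and the importin gene Tnpo1 with 5.11-fold. Nup214 had none.

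Extracellular matrix genes had the highest median of these lists, at 7.07-fold over 10 peaks, with 8 of 10 genes in reach of a peak. Lamc1, a laminin chain, had 3 peaks in the downstream direction, the strongest 9.23-fold at 4.98 kb. One peak of 8.37-fold at 12.1 kb from Col4a1 was shared with the neighbouring Col4a2, which encodes the partner chain of type IV collagen. Cyr61, a matricellular protein, had 7.60-fold at 7.55 kb upstream. Col18a1 and Ntn1 had none. Of 4 axon guidance genes Efna5, an ephrin, and Sema4c, a semaphorin, each reached 6.63-fold, and Ephb2 and Ntn1 had none.

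**Figure D3:**
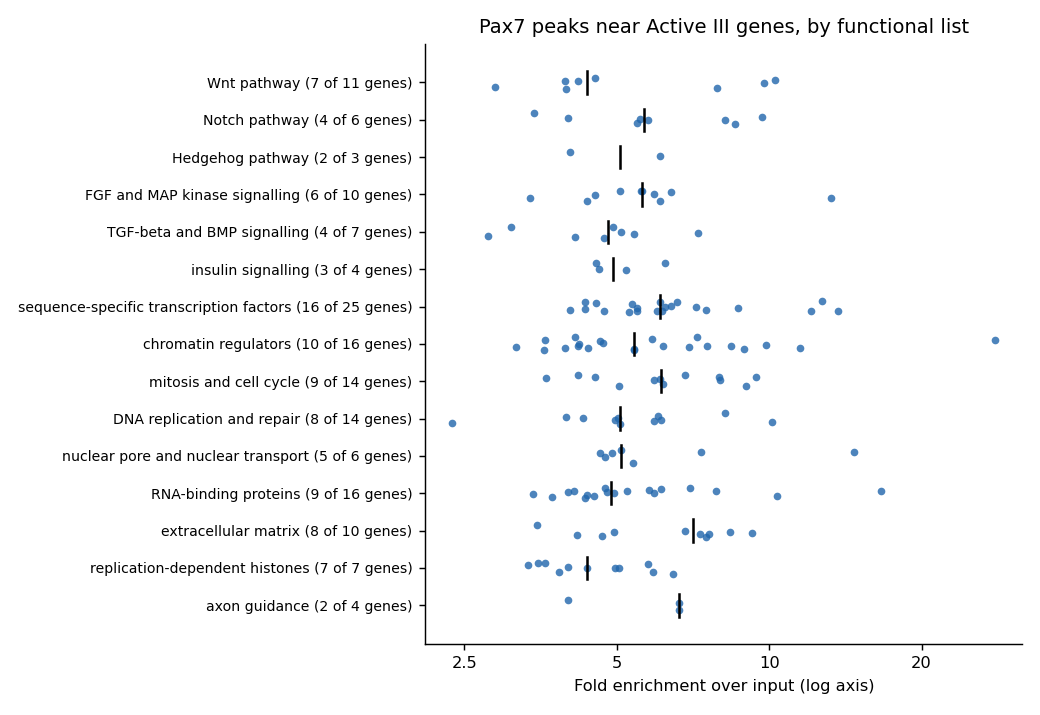
Each point is a Pax7 peak near an Active III gene of the named functional list, by its fold enrichment over input (x axis, log axis), with points spread vertically only for clarity. Black lines are medians, from 4.36 (Wnt and histone lists) to 7.07 (extracellular matrix), and the labels give genes with a peak of all genes in the list; the point at 27.97 is Hdac5.

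The sequence under the summits was not used to choose the peaks, so it could be tested. Each summit window of 101 bp was compared with a window of the same width centred 500 bp to the right, by McNemar's exact test, two-sided, with Benjamini-Hochberg adjustment over 9 motifs. The test takes peaks as its units and says nothing on variation between cultures. The paired core GTCACG was in 63 of 469 summit windows (13.4%) and in 5 flank windows (1.07%; adjusted p = 6.89e-13 by this exact test). Of all 20579 peaks 11.1% held the core in the summit window, as did 4.29% of windows of this width around the TSS of 22350 protein-coding genes. Of its 66 occurrences 75.8% lay within 25 bp of the summit, at a median of 14.0 bp.

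The AT-rich forms were rare in these peaks. The joined site was in 5 summit windows (1.07%) and no flank window (adjusted p = 0.141 by McNemar's exact test), and facing TAAT half-sites with 2 or 3 bases between them were in 4 and 1 (adjusted p = 0.375 by the same exact test). In all peaks their shares were 2.10% and 1.82%. All 9 windows with these forms lay more than 1 kb from any TSS. The paired core was in 19.0% of the 163 windows within 1 kb of a TSS and in 10.5% of the 306 beyond. Other gene-proximal peaks had a like split, with 19.3% and 11.8%. The core holds a CpG, and the windows near a TSS had a mean of 6.49 CpG against 2.08 beyond. A part of base composition in this split was not tested. Any of the 3 Pax forms was in 71 windows (15.1%). That left 84.9% of the peaks without one of these exact letters within 50 bp, which says nothing on related sites.

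Among motifs of other factors, the E-box CAGCTG, of the kind bound by myogenic bHLH factors, was in 55 summit and 25 flank windows (11.7% and 5.33%; adjusted p = 0.00161, McNemar's exact test). This call was lost in windows reaching 25 bp from the summit (adjusted p = 0.142 by the exact test) and for peaks of at least 5-fold (adjusted p = 0.196). The AP-1 site TGANTCA was in 29 and 13 windows (6.18% and 2.77%; adjusted p = 0.0498 by the exact test), a call that 4 of 5 alternatives lost. The Runx motif TGTGGT was in 30 summit and 45 flank windows (adjusted p = 0.156) and the Tead motif GGAATG in 36 and 28 (adjusted p = 0.375), both by the exact test. Against the left flank the Tead motif passed (adjusted p = 0.00781, exact test). The control words GCACTG and GACTCG did not pass, with 33 against 25 and 6 against 11 windows (adjusted p = 0.375 for each, exact test). Only GACTCG holds a CpG, as the paired core does, and it was in few windows, so the controls say little on CpG content. The joined site shares letters with the paired core, so these 2 can overlap. In the whole list 6.82% of summit windows held AP-1, 15.7% the E-box, 9.73% Runx, 11.0% Tead, 6.86% and 1.51% the control words. Summit windows had more GC than right flanks, with means of 50.9% ± 9.40 and 48.8% ± 11.4 (SD over 469 peaks), and more CpG, with means of 3.62 and 2.48 per window. The part of base composition in the motif counts was not tested.

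**Figure D4:**
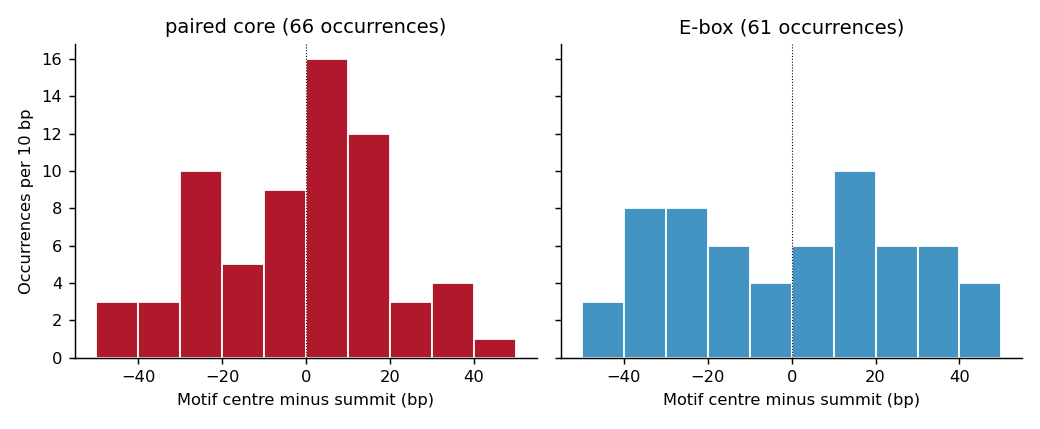
Histograms of the position of the paired core (left, 66 occurrences) and of the E-box (right, 61 occurrences) relative to the peak summit (x axis, bp; y axis, occurrences per 10 bp) in windows of 101 bp near Active III genes. The paired core gathers near position 0, with 75.8% within 25 bp, and the E-box is spread more evenly, with 57.4% within 25 bp.

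No motif passed the threshold in a comparison of the peaks near Active III genes with the other 7707 gene-proximal peaks, by Fisher's exact test, two-sided, adjusted over 9 motifs. The paired core was in 13.4% and 14.5%, a difference of -1.11 percentage points (95% interval -4.02 to 2.36, adjusted p = 0.681 by the exact test). The E-box was in 11.7% and 14.2%, a difference of -2.51 points (-5.23 to 0.81, adjusted p = 0.556, the same exact test). Adjusted p-values of the other motifs were between 0.556 and 1.00 by the same exact test. Peaks of 1 gene are not independent, so these p-values and intervals are only a guide. The intervals left room for a few points upward only for the paired core, AP-1 (to 3.18) and GCACTG (to 2.59). For the other motifs the upper bounds were 0.94 (Tead) or lower. Lower bounds ranged from -5.23 (E-box) to -1.08 (facing half-sites).

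**Figure D5:**
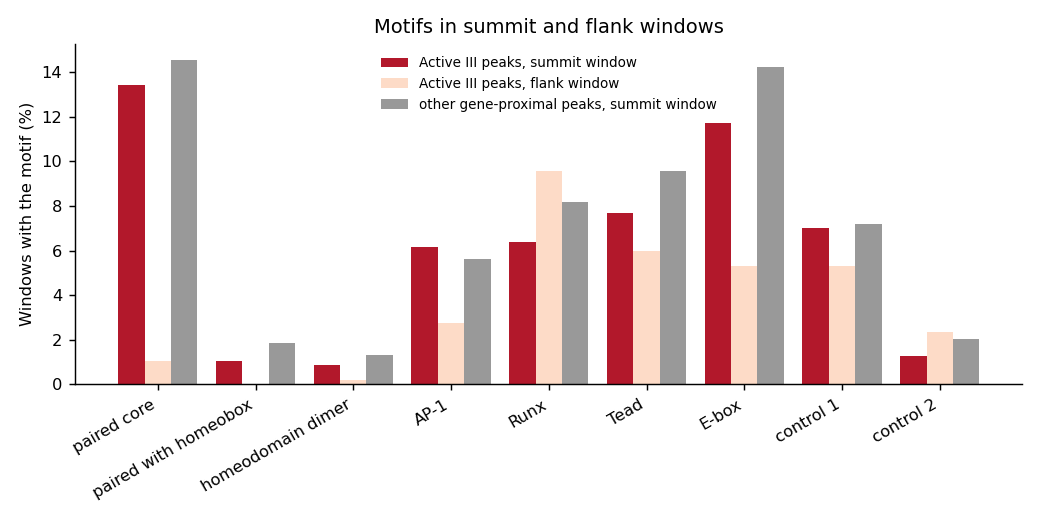
Bars give the percentage of windows of 101 bp that hold each motif (y axis, from 0) for Active III peaks at the summit (red) and in the right flank (pale), and for other gene-proximal peaks at the summit (grey). The paired core stands at 13.4%, 1.07% and 14.5%; control 1 is GCACTG and control 2 GACTCG.

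Stronger peaks held Pax forms more often, and some motifs of other factors as well. The paired core was in 9 of the 25 windows of peaks with at least 10-fold enrichment (36.0%), in 13.7% of the 219 with 5 to 10-fold and in 10.7% of the 225 below. In the other gene-proximal peaks the shares were 26.9%, 16.1% and 11.3%. The rise with strength was thus seen in both sets, as a description without a test, since strength came from the contrast that found the peaks. The median was 5.58-fold with the core and 5.06-fold without it. For Tead the medians were 7.05 and 5.06-fold, so the link to strength was not particular to Pax forms. From the weakest to the strongest class Tead rose from 4.89% to 9.59% and 16.0%, and the E-box from 10.2% to 12.8% and 16.0%. AP-1 rose from 4.89% to 7.31% and 8.00%. Runx fell from 8.00% to 5.48% and 0%, and GCACTG from 8.44% to 5.94% and 4.00%. Two-way changes were seen for the control GACTCG, with 1.78%, 0.46% and 4.00%, and for the joined site, with 0.89%, 0.46% and 8.00%. In the strongest class these were 1 and 2 of the 25 windows.

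The mean GC content of the summit windows was 50.9% ± 9.40 (SD, 469 peaks) near Active III genes and 50.3% ± 9.63 (7707 peaks) at other genes. The difference of 0.58 percentage points did not pass a two-sided permutation test (p = 0.210, 100000 resamples). For peaks more than 1 kb from any TSS it was 0.98 points, with means of 47.7% and 46.7% and a permutation p of 0.0243, and against peaks near Active I, II or Primed genes it was 1.10 points (permutation p = 0.0310). Peaks within 1 kb of a TSS were richer in GC in both sets, with 57.0% and 56.6% (difference 0.37 points, permutation p = 0.640). These p-values were not adjusted for the number of settings. They also treat peaks of 1 gene as independent, which they are not, and so are only a guide.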

How the data were processed

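ChIP-seq for Pax7 was done in iPax7 muscle progenitors, with 2 ChIP and 2 input libraries. Per the paper's methods, the authors aligned single-end reads to mm9 (NCBIM37) with bowtie2, used only reads with a unique position, took out duplicates by Picard, pooled the replicates and ran MACS2 on the pools at a q-value of 0.01. The submitters' processing notes also name MACS2. The deposited list gives for each peak the fold enrichment, a ratio that the authors computed over local background, the −log10 of the q-value, a score and the summit position. Read counts and depth are not in the list, so single peaks have no interval. Per-sample columns that matched no sample numbered 0.

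Active III genes were taken by Ensembl identifier from the study's gene lists and placed by GENCODE on NCBIM37, the build of the peaks. All 443 were found, of which 442 are protein-coding. Each gene's TSS was its annotated start, or its end on the minus strand. Other gene-proximal peaks were those within 25 kb of a protein-coding TSS and of no Active III gene. Motifs were searched on both strands of 101 bp around each summit. Genes were named by a rule. It took the 15 highest and 3 lowest peaks, the 5 genes with the most peaks and up to 4 genes per functional list. It also took peaks beside the distance limit and the strongest peaks with the paired core. Setd1b, Hist1h2ai, Tmpo, Pou2f1, Mycn, Sall1, Klf4, the transcription factor genes without a peak and neighbouring genes were named outside this rule. They were named after their values were seen. The members and lists were chosen with earlier results of these data known. One of the functional lists is not reported here. Alternatives changed the distance, the peak limits, the TSS set, the window, the flank and the compared peaks. Tests were run with scipy and statsmodels and checked on simulated data. Intervals cover counting error only.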

Additional observations from a re-analysis of the deposited data

How the results depend on the processing

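Every count here depends on limits set on 1 pooled list. The 469 peaks became 244 at a fold enrichment of at least 5, 234 within 10 kb and 828 within 50 kb of the TSS, and were between 435 and 624 under a −log10 q of at least 5, merging within 500 bp, the TSS of every transcript, or any base of the peak in place of the summit. The 298 genes became 198 at a fold of at least 5 and 182 within 10 kb. The gap of the paired core between summit and flank stayed past the threshold in all 5 alternatives, from 9.38 to 16.2 percentage points. For AP-1 the gap of 3.41 points was 1.07 within 25 bp, 4.69 within 100 bp, 2.35 against the left flank and 3.28 at a fold of at least 5, each past the adjusted threshold no longer. For the E-box the gap of 6.40 points was 3.20 within 25 bp and 5.74 at a fold of at least 5, likewise lost. For Tead the gap of 1.71 points was 4.69 against the left flank, and passed. Between Active III and other peaks no alternative gave an adjusted p under 0.209, but signs turned: for the paired core to 0.43 points within 25 bp and 0.40 within 100 bp; for AP-1 to -0.17 within 25 bp, -0.10 beyond 1 kb of a TSS and -0.14 against peaks of the Active I, II and Primed groups; for Tead to 0.62 at a fold of at least 5; for GCACTG to 1.49 against those groups; for GACTCG to 0.20 beyond 1 kb of a TSS. The GC difference passed at 0.98 points beyond 1 kb of a TSS and at 1.10 against those groups. The causes were not tested. No paired analysis was possible because the replicates were merged before peaks were called, and for the same reason no replicate could be left out.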
